A study of Gasterosteus aculeatus with 18 samples.

Results

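The 200 genes described here were those whose normalised read count varied least over 18 RNA-sequencing libraries of threespine stickleback (Gasterosteus aculeatus) embryos. They were chosen on the measured values. Of 17253 genes in the authors' deposited table, 10453 had a mean of at least 100 over the 18 libraries, and the 200 of these with the smallest SD of log2(value + 1) were taken, 1.91% of the genes that could be chosen. The SD, the variance shares and the differences between doses of these genes all come from the values that chose them, so they are given as a description, with no test of the list.

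Each library came from a pool of 10 wild type eggs of a clutch, collected 72 hours post fertilization. The 18 pools formed 3 groups of 6: control pools at 0 µg/L cortisol, low pools at 5 µg/L and high pools at 10 µg/L. The study compared a baseline with a level that predators bring on in mothers and a level above the physiological range. The labels name the agent as maternally derived cortisol and do not state whether pools with the same replicate number, 1 to 6, came from 1 clutch or whether the pools of a group came from separate clutches, so spreads here are those between these pools and may in part be technical.

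Genes with even levels serve as references in expression work: a quantity that differs between samples for technical reasons, such as the amount of RNA loaded or the depth of sequencing, moves all genes together, and a gene known to be steady lets that common factor be divided out. Common choices are genes of cell maintenance, such as those for cytoskeletal proteins, ribosomal proteins and enzymes of glycolysis. In an early fish embryo the transcript pool changes quickly as maternal RNA is degraded and the embryo's own genome is read, and cortisol, the main glucocorticoid of fish, acts through receptors that regulate transcription. A reference for such embryos has to hold its level across both sources of change. The deposited table names genes by Ensembl identifier only, and 0 of the 17253 identifiers, hence 0 of the 200, could be matched to a gene name in the reference table used here. Which of the usual reference genes are among the 200 was therefore not analysed here, and identifiers are given without a role.

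The 200 genes held within narrow bounds. Their SD over the 18 libraries ran from 0.0696 to 0.140 on the log2 scale, with a median of 0.126, against a median of 0.389 among all 10453 genes. The highest library exceeded the lowest by a median of 1.36-fold among the 200, counted on value + 1. This ratio was under 1.5-fold in 197 of the 200 genes and 1.57-fold at most. Over all 10453 genes the median ratio was 2.46-fold. The limit fell within a dense run of genes: the last gene inside had an SD of 0.1403 and the first outside 0.1404.

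The gene with the smallest SD, ENSGACG00000018391, had a mean normalised read count of 2677 over the 18 libraries. It ran from 2522 to 2757 in control pools with a median of 2658, from 2495 to 2919 in low pools with a median of 2658, and from 2529 to 2875 in high pools with a median of 2757.5. The 3 groups overlapped over most of their range, and the lowest and the highest library were both low pools. ENSGACG00000010767 was less abundant, with a mean of 404.6. It ran from 367 to 416 in control pools (median 409), from 398 to 426 in low pools (median 410.5) and from 372 to 439 in high pools (median 396), so that the low pools lay inside the range of the high pools. ENSGACG00000011916 had a mean of 1100.1. Its range was 1010 to 1234 in control pools (median 1091.5), 1037 to 1185 in low pools (median 1089) and 985 to 1163 in high pools (median 1104.5). In these 3 genes no dose group stood apart from another.

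**Figure D1:**
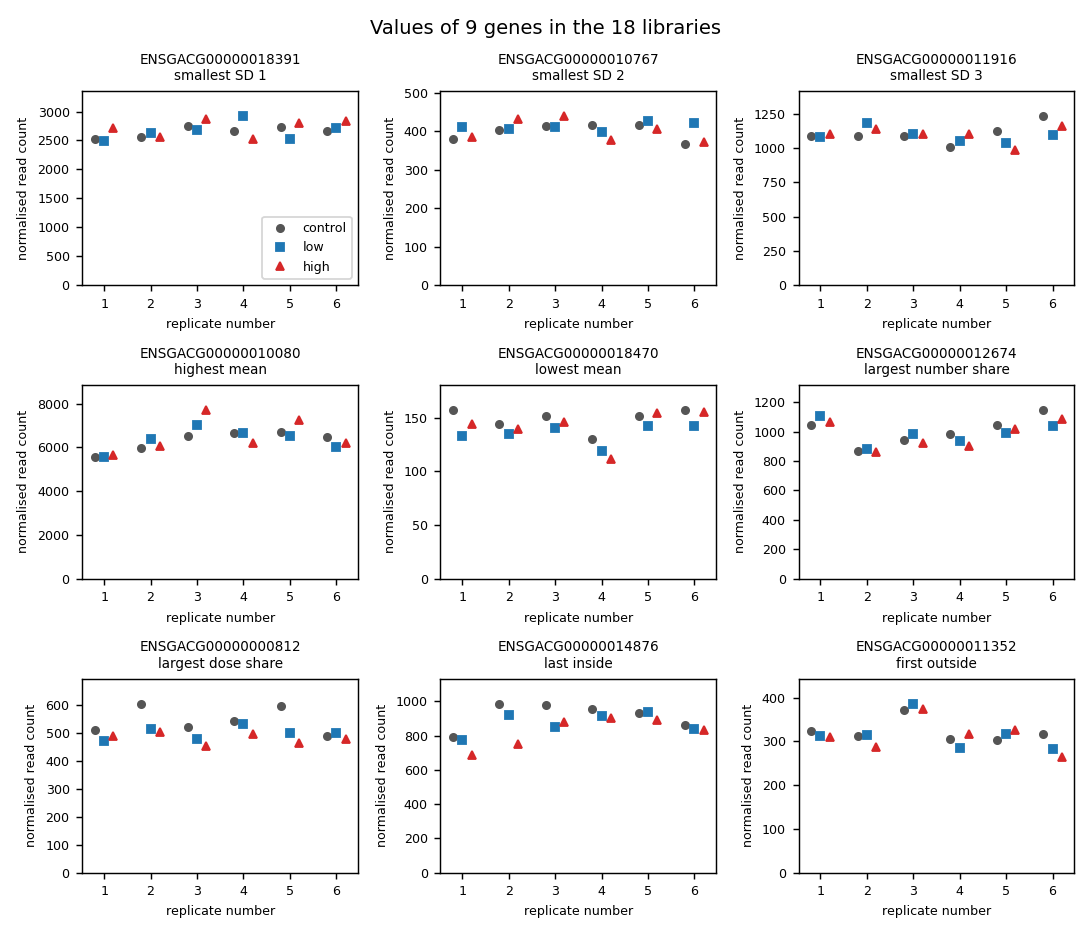
Normalised read count (vertical axes, from 0) of 9 genes named by the rule against replicate number (horizontal axes), with 1 point per library for control, low and high pools. In the gene with the smallest SD all 18 points lie between 2495 and 2919, and in the gene with the largest replicate-number share the 3 points of each number lie close together.

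The stable genes were of middle to high abundance. Their mean normalised read count had a median of 514, with an interquartile range of 335 to 965, against a median of 335 for the 10453 genes. The most abundant of them, ENSGACG00000010080, had a mean of 6395. It reached 5560 to 6717 in control pools (median 6509), 5551 to 7005 in low pools (median 6441.5) and 5674 to 7707 in high pools (median 6183.5). The least abundant, ENSGACG00000018470, had a mean of 142, with 130 to 157 in control pools (median 151), 119 to 142 in low pools (median 137.5) and 111 to 155 in high pools (median 145). Its 3 lowest values were those of replicate number 4, at 130, 119 and 111 in control, low and high pools.

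Membership was uneven over level. When the 10453 genes were divided by mean into 10 classes of equal size, class 1 (means of 100 to 128) held 0 of the 200 genes and classes 2 to 4 held 3, 14 and 8. Classes 5 to 8 (263 to 871) held 25, 32, 30 and 27, and class 9 (871 to 1564) held 46. Class 10, with means from 1567 upward, held 15. Its median SD was 0.472, above the 0.363 to 0.403 of the other classes. Together the 200 genes took 0.984% to 1.82% of a library's deposited total.

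Counting error adds to the SD of a gene, and adds more for rarer genes. With the number of reads behind each value estimated from the authors' scaling, counting alone would give a median SD of 0.0649 to the 200 genes and 0.0837 to all 10453. In class 1 it would give a median of 0.144, above the SD of 0.1403 at the limit of the list. The measured SD was a median of 1.86 times the counting SD in the 200 genes and 4.68 times in all genes. Counting made up 31.7% of the summed variance of the 200 genes and 3.66% of that of all genes. Choosing genes for a small measured SD lowers this ratio and raises this share, so both are a description. In 14 of the 200 the SD was under 1.2 times the counting SD, as in ENSGACG00000010767 (1.04 times) and ENSGACG00000018470 (1.09 times). In 84 it was above 2 times, and ENSGACG00000010080 stood at 6.965 times. Over all 10453 genes the 10th percentile of this ratio was 2.23. For ENSGACG00000018470 the counting SD alone was 0.124, close to the limit of the list. Yet by the shares described below, replicate number held 72.7% of its variance, dose 17.3% and the remainder only 9.98%.

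**Figure D2:**
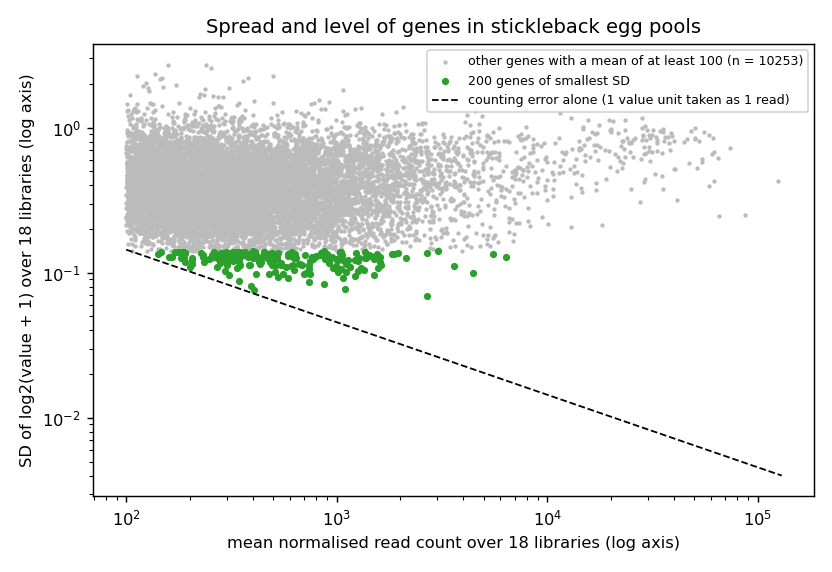
SD of log2(value + 1) over 18 libraries (vertical, log axis) against mean normalised read count (horizontal, log axis) for the 200 genes of smallest SD and the other genes with a mean of at least 100; the dashed line is the SD that counting alone would give if 1 unit were 1 read. The 200 genes lie under an SD of 0.1403, and at means near 100 the line passes above that limit.

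Replicate number had the largest share of the variance of the 200 genes. The shares are of the total variance, and counting error was not removed from any of them. Over the 200 genes the replicate number accounted for 55.3% of the summed variance of the log2 values, the dose for 10.6% and the remainder was 34.1%. Over all 10453 genes the shares were 85.4%, 5.25% and 9.33%. Values with no structure would on average divide as the degrees of freedom do, 29.4%, 11.8% and 58.8%. The replicate-number share of the 200 genes was above that, the remainder below it and the dose share close to it. Per degree of freedom, the mean square of the 200 genes was 0.0284 for replicate number, 0.0136 for dose and 0.00876 for the remainder, so that the dose term was above the remainder. Over all genes these mean squares were 0.707, 0.109 and 0.0386. In absolute size both sources were small: the range of the 6 replicate-number means had a median of 0.25 on the log2 scale (0.96 over all genes), and the range of the 3 dose means had a median of 0.075 (0.16 over all genes). The replicate number had the largest share in 152 of the 200 genes, the remainder in 45 and the dose in 3. Over all genes the replicate number had the largest share in 97.1%.

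ENSGACG00000012674 had the largest replicate-number share of the 200 genes, 88.9%, although its mean of 990 varied with an SD of only 0.124. Pools of number 2 had 865, 881 and 863 in control, low and high, and pools of number 6 had 1146, 1040 and 1085. All 3 pools of number 2 lay below the other 15 libraries. ENSGACG00000018391, with the smallest SD, had a replicate-number share of 34.3% and a remainder of 59.8%. The shares ranged widely among the 200 genes, from 14.7% to 88.9% for replicate number and from 9.62e-05% to 46.7% for dose.

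**Figure D3:**
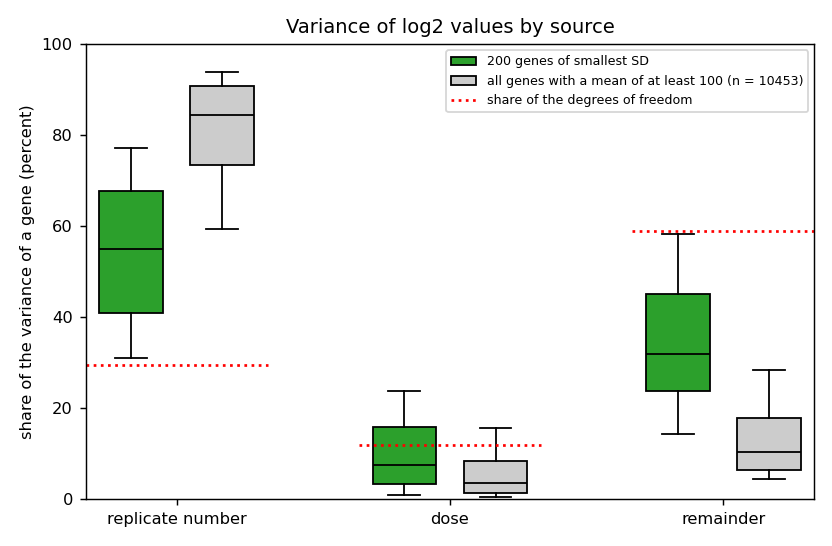
Share of a gene's variance over 18 libraries (vertical, percent) by replicate number, dose and remainder, for the 200 genes of smallest SD and for all genes with a mean of at least 100; boxes are quartiles, lines medians, whiskers the 10th and 90th percentiles and dotted lines the share of the degrees of freedom. The median replicate-number share is 54.8% in the 200 genes and 84.4% in all genes.

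The traces of the replicate numbers were still present in the 200 genes. With group means taken out, the profiles of the 200 genes in 2 libraries of the same number and different dose correlated at 0.43 on average, between 0.16 and 0.62. The mean was -0.087 where number and dose both differed. With group means taken out the 6 profiles of a group cancel, which draws this mean negative where same-numbered libraries are alike. It is therefore not a separate result. The closest library in another dose group was the same-numbered one in 36 of 36 cases, as it was over all 10453 genes. Over all genes the same-number correlation was 0.85 on average. Genes are not independent replicates, and the values are a description. The 3 libraries of a number all lay above, or all below, the other 15 in 26 of the 200 genes (13%), against 44.2% of all 10453 genes. For number 1 this held in 4 of the 200 genes, against 22.9% of all genes. For number 4 it held in 6 of the 200 genes, against 1.32% of all genes. For numbers 2, 3, 5 and 6 it held in 6, 4, 5 and 4 of the 200 genes, against 5.85%, 6.56%, 6.62% and 5.79% of all genes. Number 3 had the highest or the lowest mean of the 6 numbers in 83 of the 200 genes (34.6% of all genes) and number 4 in 42 (19.1% of all genes). Number 1 did so in 72 of the 200 genes and in 54.4% of all genes.

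No single axis dominated the 200 genes. The first principal component of their log2 values held 17.9% of the variance, the second 14.9% and the third 12.6%, whereas over all 10453 genes the first held 58.0%. Choosing genes for a small SD limits how far they can follow an axis that holds most of the variance. The contrast is therefore set in part by the choice and is a description only. On the first component of the 200 genes all pools of numbers 1 and 6 had scores of 0.26 to 0.37, and all pools of number 3 had scores of -0.36 to -0.25. On the second the pools of number 2 had the highest scores, 0.34 to 0.51, and high pools 5 and 3 the lowest, -0.48 and -0.36. The number of the 200 genes that deviated by more than 0.2 from their own mean was 8 to 32 in control, 7 to 21 in low and 10 to 34 in high libraries. The highest counts were those of high pool 3 (34), high pool 5 (32) and control pool 2 (32). High pool 3 also had the most genes with values no greater than 5, 1220, where the other libraries had 358 to 802. The part of that library in these deviations was not tested.

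The differences between doses were small. In limma without a replicate block, 0 of the 200 genes and 0 of all 16103 genes tested were called in low against control, in high against control or in high against low (background 0% in each, adjusted p under 0.05). At an unadjusted p under 0.05 limma gave 78, 158 and 385 of the 16103 genes in these comparisons and 0 of the 200 in each. Replicate number, which held 85.4% of the summed variance over all 10453 genes, stays in the error of the fit without a block. That makes the fit without a block conservative. With the replicate number as a block, limma called 0 of the 200 genes in each comparison, against a background of 0% in low against control, 1.17% in high against control and 8.07% in high against low. At an unadjusted p under 0.05 the blocked fit gave 2, 8 and 6 of the 200 genes, against 1782, 2647 and 3834 of the 16103 genes. The 200 genes' smallest adjusted p from limma with the block was 0.419, 0.132 and 0.0688 in the same order. Limma also draws the variance of each gene toward that of genes of similar level, which raises the SE of genes of small SD. Since the choice of small total SD limits the size of any difference, nothing is read from these counts.

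On the log2 scale the 200 genes differed by -0.17 to 0.15 between low and control pools, by -0.18 to 0.18 between high and control pools and by -0.20 to 0.19 between high and low pools. The medians were 0.0016, 0.0042 and -0.0037. Higher and lower genes were even in number, with 102 of 200 above 0 in low against control, 102 in high against control and 93 in high against low. A difference of more than 0.1 was found in 16, 32 and 35 of the 200 genes, against 43.3%, 48.7% and 54.7% of all 10453. The comparisons of low and of high with control share the 6 control pools. The difference had the same direction in 6 of 6 replicate numbers in 7 genes for low against control (background 4.68%), in 15 for high against control (11%) and in 9 for high against low (14.7%). The 6 pools of 2 dose groups were fully separated in 0 of the 200 genes in each comparison, with a background of 0%, 0.0383% and 0.0287%.

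ENSGACG00000000812 had the largest dose share of the 200 genes, 46.7%. Its normalised read count was 491 to 605 in control pools (median 533), 473 to 531 in low pools (median 500.5) and 453 to 505 in high pools (median 484). Control pools were the highest as a group but overlapped both treated groups. The log2 difference was -0.12 ± 0.096 between low and control and -0.18 ± 0.096 between high and control. The ± is the SE of limma without the block, whose variance is drawn toward that of genes of similar level. It is therefore larger than the values of this gene alone would give. The adjusted p was 0.99995 and 1 in limma without the block and 0.509 and 0.181 with it. The high pool was below the control pool in 6 of 6 numbers, with 478 against 491 in number 6 and 465 against 598 in number 5. As this gene was picked for its dose share, these values are a description. ENSGACG00000014876, the last gene inside the limit, had a dose share of 22.8%, with 794 to 986 in control pools (median 946.5), 773 to 940 in low pools (median 881.5) and 687 to 903 in high pools (median 857). The first gene outside, ENSGACG00000011352, had 303 to 372 in control pools (median 314.5), 283 to 386 in low pools (median 313.5) and 265 to 374 in high pools (median 314.5). Its pools of number 3 held the 3 highest values, at 372, 386 and 374.

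As a reference, the 200 genes together gave each library a level, the mean of their log2 values. This reference level ranged over 0.070 on the log2 scale across the 18 libraries, which is 1.050-fold, from 0.973 of the mean in low pool 5 to 1.021 in low pool 3. It was 0.0023 ± 0.016 (SD, n = 6) in control pools, -0.0003 ± 0.025 in low pools and -0.0020 ± 0.012 in high pools on the log2 scale. The differences between doses were smaller than the spread within each dose. Choosing genes for a small SD over these same 18 libraries limits both, so these levels are a description only. A reference of only the 3 genes of smallest SD ranged over 1.101-fold and one of the first 10 genes over 1.082-fold. Among all 19900 pairs of the 200 genes, the SD of the log2 ratio of 2 genes, which does not depend on how libraries are scaled, ran from 0.067 to 0.26 with a median of 0.17.

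The evenness of a reference was also read in libraries that took no part in the choice. When the genes were chosen again on 15 libraries, with 1 replicate number left out at a time, 122 to 163 of the 200 genes were chosen again. These 15 libraries also took part in the choice of the 200, so part of that overlap is built in. In the 3 libraries left out the genes so chosen deviated from their mean by a median of 0.10 to 0.19 on the log2 scale, against 0.26 to 0.48 for all genes with a mean of at least 100 in the libraries used. Their mean level in the left-out libraries lay between -0.063 and 0.029 for numbers 1, 2, 4, 5 and 6. In number 3 it was 0.084 in the control, 0.11 in the low and 0.11 in the high pool. The 3 pools of number 3 were thus above the level of the other numbers by more than any other left-out number. Over all genes with a mean of at least 100, the median signed deviation was lowest in low pool 1, at -0.052. It was highest in high pool 3, at 0.070. These medians were taken about means that include every library, so they are not fully comparable with the left-out levels. The mean level of the chosen genes was therefore not shown to be more even between libraries than that of genes at large. Taken singly, the chosen genes did deviate less, by a median of 0.10 to 0.19 against 0.26 to 0.48. Between doses of the same left-out number the reference level differed by -0.0019 ± 0.029 (SD, n = 6) for low minus control. It differed by -0.0064 ± 0.033 for high minus control and by -0.0046 ± 0.020 for high minus low. The difference was above 0 in 4, 3 and 3 of the 6 numbers, in the same order. The genes were chosen as even over control, low and high pools of the other numbers. Small differences between doses are therefore in part built in.

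**Figure D4:**
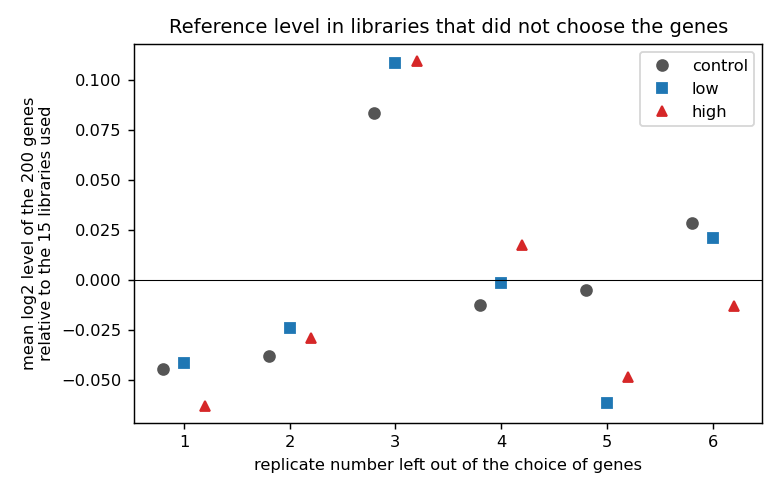
Mean log2 level of 200 genes chosen on 15 libraries (vertical), read in the 3 control, low and high libraries of the replicate number left out (horizontal) and given relative to the 15 libraries used. The 3 points of number 3 lie at 0.084 to 0.11 and those of the other numbers between -0.063 and 0.029.

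Genes chosen on fewer libraries carried over in part. Of 200 genes chosen on the control pools alone 89 were among the 200, on the low pools alone 90 and on the high pools alone 100. The 18 libraries that chose the 200 include these pools, so part of the overlap is built in. The genes chosen on 1 group were also read in the other groups. Their median SD in the 12 libraries left out was 0.169, 0.165 and 0.153, against 0.400, 0.396 and 0.374 for all genes with such a mean. With the genes chosen on control pools alone, the reference level of the 12 treated libraries spanned 1.046-fold. These libraries carry the same replicate numbers as the control pools that chose the genes, so they are not independent of the choice.

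The evenness of the 200 genes held on the authors' scale and was in large part lost when libraries were divided by their totals. The deposited column totals ran from 8.36 M (low pool 1) to 15.2 M (high pool 5), although the estimated depth before scaling ran only from 9.65 to 12.4 M reads. The authors' scaling thus did not bring the libraries to a common total. When each library was divided by its total instead, the level of the 200 genes spanned 1.85-fold. It was highest in numbers 1 and 6, at 1.25 to 1.33 times the mean, and lowest in low and high pool 5, at 0.720 and 0.733. The 100 most abundant genes moved the opposite way: they took 20.4% to 24.3% of the total in libraries of numbers 1 and 6 and 39.5% and 39.8% in low and high pool 5. Their part in the change of scale was not tested. On the column-total scale the SD of the 200 genes was 0.22 to 0.43, with a median of 0.32, and by dose their level was -0.013 ± 0.27 (SD, n = 6) for control pools, 0.051 ± 0.33 for low pools and -0.038 ± 0.34 for high pools.

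**Figure D5:**
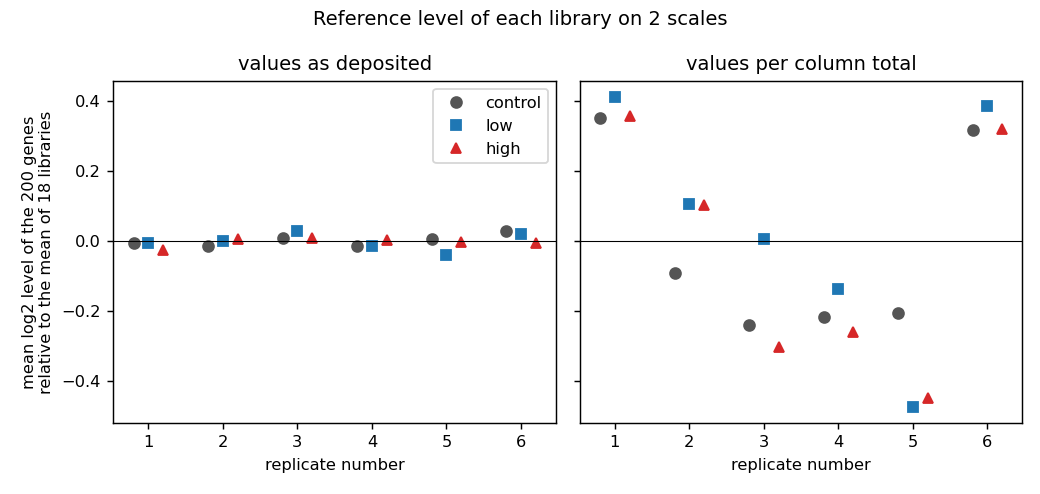
Mean log2 level of the 200 genes in each library relative to the mean of 18 libraries (vertical) by replicate number (horizontal), on the deposited scale (left) and per column total (right), for control, low and high pools. The level spans 1.050-fold on the deposited scale and 1.85-fold per column total, where numbers 1 and 6 are highest and low and high pool 5 are lowest.

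The list itself changed with the scale. The 200 genes of smallest SD per column total shared 0 genes with the 200 chosen on the deposited values, and their largest SD on that scale was 0.160. Those genes were of higher abundance, with a median mean of 721 on the deposited scale. There their mean level spanned 1.80-fold, from 0.728 of the mean in low pool 1 to 1.31 in high pool 5. Per column total the 200 genes were highest in low pool 1. When the libraries were rescaled to the level of the genes so chosen and the choice was repeated until it no longer changed, after 20 rounds, the list again shared 0 genes with the 200. It had a largest SD of 0.151, close to the 0.140 of the 200 genes, and on its own scale the level of the 200 genes spanned 1.64-fold. From the deposited values the same procedure ended after 8 rounds on a list that shared 171 of its 200 genes. Both lists were thus even when measured against themselves, and each varied when measured against the other. Each list was chosen for a small SD on its own scale, and the rescaled list also set that scale. Evenness of a list against itself is therefore built in, and these values do not tell which list is the better reference.

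Used as a reference for the study's comparisons, the 200 genes changed the calls little. They were chosen as even on the deposited values, and their level spanned only 1.050-fold there. Dividing by that level could therefore change little, and nothing is read from the shared calls about the quality of the reference or of the authors' scaling. With each library divided by its reference level, limma with the replicate block called 202 genes in high against control, of which 187 were among the 188 called on the deposited values. In high against low it called 1280 genes, of which 1264 were among the 1300 called on the deposited values. In low against control it called 0 on both scales, with 1782 genes at an unadjusted p under 0.05 on the deposited values and 1748 with the reference. With libraries divided by their totals the blocked fit called 78 genes in high against control, 76 of them among the 188, and 967 in high against low, 863 of them among the 1300. Of those 967 genes 302 rose and 665 fell from low to high pools, while on the deposited values 700 rose and 600 fell. The median of all genes in high against low was -0.0066 on the deposited values and -0.093 per column total. Without the block limma called 0 genes in each comparison on all 3 scales, with 55 to 385 at an unadjusted p under 0.05.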

How the data were processed

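RNA of 18 egg pools, 6 in each of 3 dose groups, was sequenced. The authors deposited 1 table of 17253 genes, whose values are treated as scores: counts scaled per library and rounded to whole numbers, by its file name and values. Per the submitters' processing notes the tools were edgeR, HTSeq, Cuffdiff, Cufflinks 2.2.0, TopHat, TopHat2 2.0.8, Bowtie2 2.1.0 and FastQC, with no role stated. How the counts were scaled, the genome build and the annotation were not given in the sources read.

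Scaling factors were estimated from the whole numbers below 300 that are skipped or doubled in each column, after a check on simulated columns. The factor was clear in 16 of 18 columns (log-likelihood at least 40 above any other) and near 1 in the other 2. Estimated depth was 10.49 ± 0.530 M reads (SD, n = 6) for control libraries, 11.61 ± 0.894 M for low and 10.99 ± 0.680 M for high ones. The counting SD is that of a Poisson count of the estimated reads, and covers counting error only. Reads were not recovered, so no count model was fitted.

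Values were transformed to log2(value + 1). Genes whose mean was at least 1 count per 1000000 of the mean column total (16103 genes) entered a limma 3.58.1 fit (R 4.3.3) over all 18 libraries, with a trended prior variance, Benjamini-Hochberg adjustment at 0.05 and no block. No label ties a replicate number to a clutch, but over the 10453 genes 2 libraries of the same number and different dose correlated at r of 0.74 to 0.95 once group means were taken out, so blocked values are given too. The fit was tested on simulated data. Python 3.11.15 with NumPy 2.4.6, pandas 2.3.3 and matplotlib 3.10.9 did the rest. The genes named were the 3 of smallest SD, those of highest and lowest mean, those with the largest replicate-number and dose shares, and the last inside and first outside the limit. The lists of reference, glucocorticoid and ABC transporter genes could not be applied without gene names. The members and lists were chosen with earlier results of these data known.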

Additional observations from a re-analysis of the deposited data

Results flagged for a closer look

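In 42 groups of 6 pools of the named genes and library values checked by Dixon's ratio, 4 held a pool far from the other 5, where chance gives about 2.1. ENSGACG00000011916 stood at 985 in high pool 5, against 1101 to 1163 in the other high pools. ENSGACG00000018470 stood at 111 in high pool 4, against 139 to 155. ENSGACG00000011352, the first gene outside the limit, stood at 372 in control pool 3, against 303 to 324, and at 386 in low pool 3, against 283 to 316. Over all 600 groups of the 200 genes 33 held such a pool, where chance gives 30. The pool was control pool 6 in 6 of the 33 and high pool 5 in 4.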

How the results depend on the processing

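A value of the list was counted as moved where it changed by more than its jackknife SE over the 6 replicate numbers, and a count where it changed by more than 1.5 times. The limit of 0.140 on the SD, the median level of 514, the variance shares of 55.3% and 10.6%, the reference range of 0.070 and the list of 200 genes moved in none of these respects with a pseudocount of 0.5 or 5 or a minimum mean of 50 or 200, under which 187 to 200 genes were kept. Per column total the limit was 0.160, the median level 732, the reference range 0.145 and the genes kept 0, and 0 were kept after rescaling, an alternative chosen after seeing the data, as was rescaling from the deposited values, which kept 171. With the MAD in place of the SD 96 genes were kept, the largest SD was 0.355 and the replicate-number share 64.0%. Lists of 100 and of 400 genes had limits of 0.126 and 0.161 by construction. With the SD taken relative to its trend over level, 166 genes were kept, the largest SD was 0.191 and the median level 619. Genes chosen on control, low or high pools alone numbered 89, 90 and 100 of the 200, and those chosen without control, low or high pools 151, 147 and 130; the cause was not tested. Read in the libraries left out, the reference range was 0.064, 0.052 and 0.063 for genes chosen on control, low or high pools alone. It was 0.037, 0.070 and 0.053 for those chosen without control, low or high pools. Variance shares were not recomputed for those choices. The limit on the SD, over the libraries used, was 0.111, 0.115 and 0.123 for genes chosen on control, low or high pools alone. It was 0.138, 0.137 and 0.128 for genes chosen without control, low or high pools.

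Without 1 replicate number at a time the limit was 0.127 to 0.140, the median level 499.7 to 595, the replicate-number share 46.2% to 54.7%, the dose share 11.5% to 14.2%, the reference range 0.045 to 0.061 and the genes kept 122 to 163, lowest without number 3. With 1 number fewer the degrees of freedom divide differently, which raises the dose share of values with no structure. These shares are therefore not directly comparable with those of all 18 libraries.

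With the replicate block limma called 188 genes in high against control and 1300 in high against low, where the fit without it called 0. With the block and reference scaling it called 202 and 1280, and with the block and column totals 78 and 967. With the block and without numbers 1 to 6 in turn it called 85, 134, 18, 94, 52 and 45 genes in high against control and 670, 1405, 504, 1021, 984 and 652 in high against low. In low against control it called 1 gene without number 4 and 372 without number 5, and otherwise 0. Of the 200 genes limma called 0 in each comparison and under each of these settings. The cause of these changes was not tested.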
